A study of Bos taurus and Felis catus with 14 samples.

Results

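The mir-30 family was taken from the 2 sets of predicted microRNA loci by name, as every precursor (the hairpin RNA that is cut into mature microRNAs) whose name holds the family number 30 with any letter, copy number or mark for a new member. Names that begin with the mark for antisense were left out. This gave 13 precursors of 1305 in all, 6 of 810 in cow and 7 of 495 in cat. The bovine set was called by the authors on 10 small RNA libraries from 3 Angus steers together, 1 library each of brain stem, retina, iris, optic nerve, corium, bone marrow, submandibular lymph node, dental pulp, penis and oral papillae, of which 8 were from 1 steer, and the brain stem and the corium were each from a different steer. The feline set was called in the same way on 2 skin and 2 muscle libraries from 3 male neutered domestic short hair cats of 10 to 13 years. The sets analysed give positions, strands, names and arms and no read numbers, so the depth behind a locus was not used here and neither tissues nor levels were compared. There is 1 call set for each species and no replicate call set, so positions and lengths are given without error and no difference was tested. Shares over all precursors of a set stand beside the family's counts.

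MicroRNAs of the mir-30 family bind messenger RNAs through the seed, a short stretch near the 5′ end of the mature product, and lower their translation or stability. Family members share the seed of their 5p product (the one cut from the 5′ arm of the hairpin) and can differ in parts of the rest. They are widely expressed in mammalian tissues, and are known to restrain epithelial-to-mesenchymal transition and the production of connective tissue growth factor. In mammals the family lies in pairs on different chromosomes, and each pair can be made from a common transcript.

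Bovine and feline sequences of these loci were not used here. Human sequences of the same family, from products that the study also read in MCF-7 cells (an established breast cancer cell line), are printed to show the shared seed and how the opposite strand can carry it. All lie on human chromosome 1. In the 5p products the capitals mark the seed, bases 2 to 8. In the 3p product they mark the stretch that is complementary to the seed.
hsa-mir-30e 5p: tGTAAACAtccttgactggaagc
hsa-mir-30c-1 5p: tGTAAACAtcctacactctcagct
hsa-mir-30e 3p: ctttcagtcggaTGTTTACagc
as-hsa-mir-30e 5p: tGTAAACAtccgactgaaagct
The 5p products of mir-30e and mir-30c-1 had the first 12 bases in common. The product named as antisense to mir-30e began with 11 bases that mir-30e and mir-30c-1 also have, the seed among them. Its complement covered the 3p product of mir-30e over 20 bases, all of them matching, and the 3p product ran 2 bases beyond the first base of the antisense product.

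All 6 bovine members had plain names (mir-30a to mir-30f). In cat, 3 members had plain names (mir-30b, mir-30c-1 and mir-30c-2) and 4 carried the authors' mark for further members, of which fca-mir-30-Novel2, fca-mir-30-Novel3 and fca-mir-30-Novel4 are numbered and 1 is not. In each species 6 members formed 3 pairs, both members of a pair lying on the same strand, and the unnumbered feline member lay opposite a member of a pair. The feline pairs were set beside the bovine ones by a shared letter (b, or c where the gap was of the same order), which left the third pair of each species to each other. Within a pair, members were matched by their order in the direction of transcription. Apart from as-bta-mir-30e, a precursor opposite bta-mir-30e that its antisense name keeps out of the family, no precursor of another name lay within 1 Mb of a member on either side. Over the 26 sides checked the smallest distance to one was 1016505 nt. Chromosomes of the cat are called by the letters that other loci on them carry in their names.

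The bovine pair of bta-mir-30d and bta-mir-30b lay on the plus strand of chromosome 14. The precursor bta-mir-30d ran from 8080295 to 8080361 and bta-mir-30b from 8084735 to 8084799, with a gap of 4373 nt. In cat, fca-mir-30-Novel4 (76286555 to 76286621) and fca-mir-30b (76282064 to 76282128) lay on the minus strand of chromosome F2 (NC_018740.2), with a gap of 4426 nt. The gaps differed by 53 nt, so that the feline gap was 1.01 times the bovine one, and in both species the mir-30b locus was the downstream member. A microRNA outside the family stood on the same side of this pair in both sets. The locus bta-mir-151 lay upstream of bta-mir-30d on the same strand at 4.05 Mb, and fca-mir-151 lay upstream of fca-mir-30-Novel4 on the same strand at 4.52 Mb (mir-151 was chosen after its values were seen). It was the only name outside the family that the sets shared on bovine chromosome 14 or on feline F2. All 6 bovine members were found by name in a table of RefSeq genes, made on the assembly ARS-UCD2.0. There MIR30D and MIR30B lay inside no gene, with ZFAT, a gene of a zinc finger protein, as the next named protein-coding gene on 1 side and KHDRBS3, a gene of an RNA-binding protein, on the other.

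The pair of bta-mir-30e and bta-mir-30c lay on the minus strand of chromosome 3. Transcription passes bta-mir-30e (106062501 to 106062568) before bta-mir-30c (106059374 to 106059439), and the gap was 3061 nt. The feline pair, fca-mir-30-Novel2 (31678903 to 31678970) and fca-mir-30c-1 (31681927 to 31681992), lay on the plus strand of chromosome C1 (NC_018730.2) with a gap of 2956 nt. This is 105 nt less than in cow, or 0.966 times the bovine gap. In both species the mir-30c locus was the downstream member. All 3 names outside the family that the sets shared on bovine chromosome 3 (mir-149, mir-186 and mir-197) were on C1 in cat, where they were 3 of 11 such names. In the RefSeq table MIR30E and MIR30C both lay inside NFYC, the gene of a subunit of the transcription factor NF-Y, which binds CCAAT boxes. The paper places fca-mir-30c-1 in an intron of NFYC in cat as well, with a pair of mir-30 homologs lying antisense to each other.

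The remaining pair was the widest in both species and differed most between them. On the minus strand of bovine chromosome 9, bta-mir-30a (10768283 to 10768346) preceded bta-mir-30f (10730935 to 10731001) at a gap of 37281 nt. On the minus strand of feline chromosome B2 (NC_018727.2), fca-mir-30-Novel3 (64999787 to 64999853) preceded fca-mir-30c-2 (64974487 to 64974553) at a gap of 25233 nt. The feline gap was 12048 nt shorter, or 0.677 times the bovine one. The names of this pair do not correspond between the sets, since the place of feline mir-30c-2 was held in cow by a locus with a letter of its own, mir-30f. Bovine chromosome 9 held 0 loci outside the family with a name that the feline set also had, and feline B2 held 1, whose bovine locus was on another chromosome, so that no shared name joined these chromosomes. In the RefSeq table MIR30A lay inside a gene listed only as LOC132346186, and MIR30F lay outside it.

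**Figure D1:**
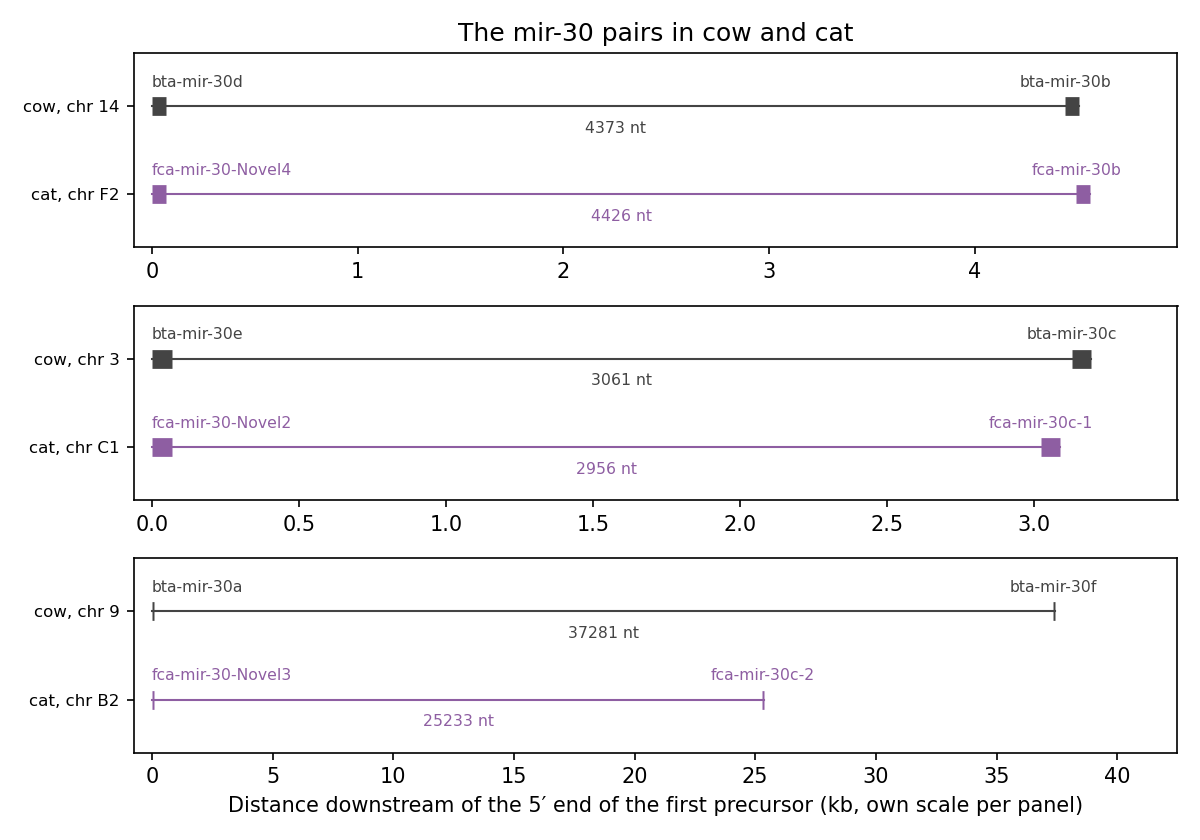
Maps of the 3 mir-30 pairs, bovine above feline, with distance in kb downstream of the 5′ end of the first precursor on the horizontal axis (each panel has its own scale) and boxes for the precursors. The gaps of the upper and middle pairs differed by 53 and 105 nt between the species, and that of the lower pair was 37281 nt in cow and 25233 nt in cat.

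The gaps were read against other neighbours in these sets. Of loci outside the family whose name occurred once in each set, 47 pairs were neighbours in both, on matching strands and at most 50 kb apart. All 47 kept their order of transcription. The ratio of the feline to the bovine gap had a median of 1.01, with quartiles of 0.971 and 1.05 and a range of 0.564 to 1.87. The ratio of the pair with mir-30b lay nearer to 1 than those of 39 of the 47 pairs on a log scale. The pair with mir-30e was matched partly by the size of its gap, so its ratio is not ranked. The match of the pair with mir-30a followed from that of the other pairs, so it rests on gap size as well. Its counts are therefore given as a description and not as a ranking. Of the 47 ratios, 3 lay farther from 1 than that of this pair. Of the 8 neighbour pairs with a bovine gap over 10 kb, 2 had a ratio farther from 1. The pairs of mir-29 and mir-181, families that are also spread over paralogous pairs, were much closer together. The gaps of mir-181 were 116, 119 and 1131 nt in cow and 120, 119 and 1185 nt in cat. The close pairs of mir-29 lay 288 and 453 nt apart in cow and 267 and 488 nt apart in cat. A further mir-29 locus lay 83311 nt downstream of its neighbour in cow (bta-mir-29e) and 61785 nt in cat (fca-mir-29-Novel2). Wide gaps were not always shorter in cat. Over the 8 neighbour pairs with a bovine gap over 10 kb the ratio ran from 0.564 to 1.87, with a median of 0.967.

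**Figure D2:**
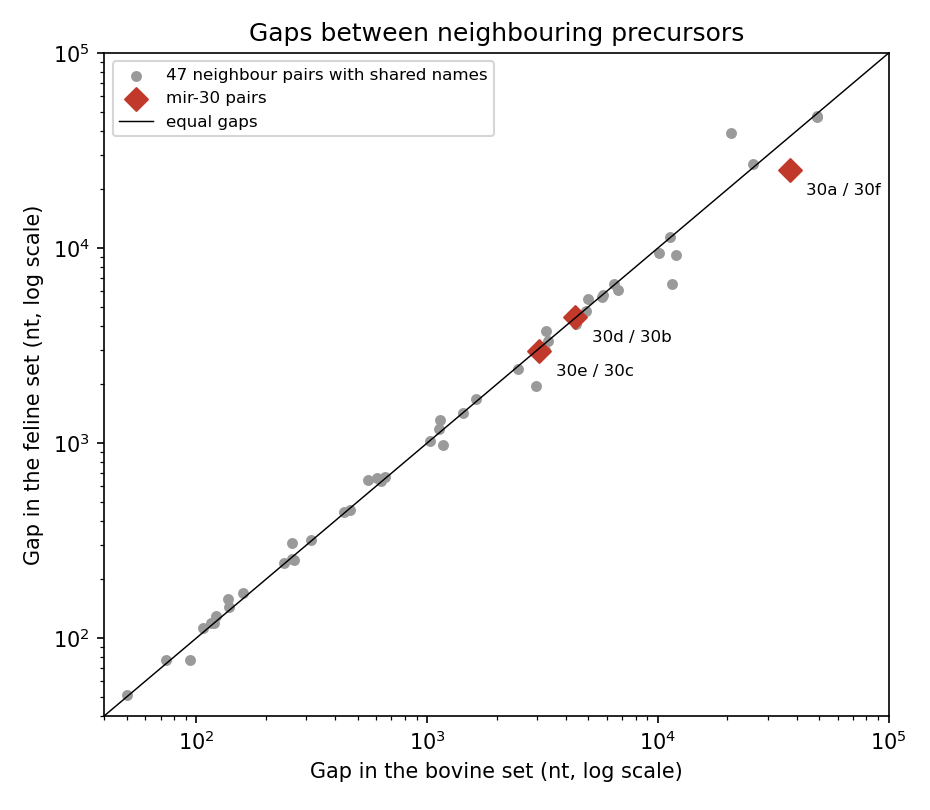
Gap between neighbouring precursors in the feline set against that in the bovine set, both in nt on log scales. Grey points are the 47 neighbour pairs with shared names, red diamonds are the mir-30 pairs and the line marks equal gaps. The mir-30a and mir-30f pair lies below the line, at a ratio of 0.677.

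With the distance of 10 kb that the study uses for clusters, 4 of 6 bovine and 5 of 7 feline members lay in a cluster, in 2 clusters in each species. Over all precursors this share was 29% in cow and 33.3% in cat. The mir-181 pairs and the close mir-29 pairs, whose gaps are given above, also lay within 10 kb in both species. The members outside clusters were bta-mir-30a and bta-mir-30f in cow and fca-mir-30-Novel3 and fca-mir-30c-2 in cat. At 50 kb these joined as well, and all 6 bovine and all 7 feline members lay in clusters, beside 35.1% of all bovine and 38.8% of all feline precursors.

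Every member that belongs to a pair gave a product from each arm. This held for 6 of 6 members in cow and 6 of 7 in cat, and over all precursors for 72.5% and 65.7%. In mir-29 and mir-181 it held for 5 of 5 and 6 of 6 members in each species, so it is not particular to mir-30. The exception in mir-30 was the unnumbered feline member, with a 5p product alone. In all, the bovine members gave 6 products from the 5p and 6 from the 3p arm, and the feline members 7 and 6. The 3p products were 22 nt long at every member that had one, a length that 51.8% of all bovine and 48.5% of all feline 3p products have.

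The 5p products of most members were 24 nt long. Those of bta-mir-30c, bta-mir-30d, bta-mir-30e and bta-mir-30f had 24 nt, that of bta-mir-30b 22 nt and that of bta-mir-30a 20 nt. In cat, the 5p products of fca-mir-30c-1, fca-mir-30c-2, fca-mir-30-Novel2, fca-mir-30-Novel3 and fca-mir-30-Novel4 had 24 nt, and those of fca-mir-30b and the unnumbered member had 22 nt. A 5p product of 24 nt was thus listed at 4 of 6 bovine and 5 of 7 feline members. Over all 5p products it made up 4.54% in cow and 6.46% in cat. In mir-29 and mir-181 it was listed at 1 of 5 and 0 of 6 bovine members, and at 1 of 5 and 0 of 6 feline members. Members with near-identical products can share reads. By the study's methods, the count of a read with several genome positions is divided evenly among them, so the product lengths of such members are not independent of each other.

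**Figure D3:**
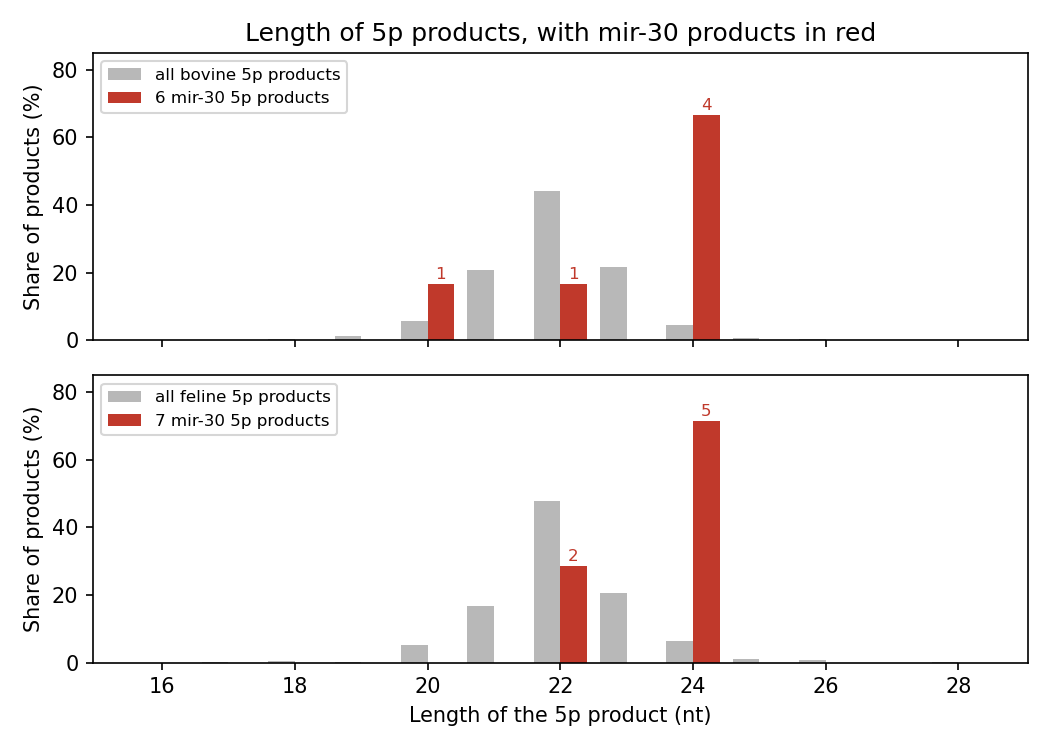
Length of 5p products in nt on the horizontal axis and their share in percent on the vertical axis, for all products of a set (grey) and for the mir-30 products (red, with their number above the bar). At 24 nt stand 4 of 6 bovine and 5 of 7 feline mir-30 products, against 4.54% and 6.46% of all.

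The distance between the first bases of the 5p and the 3p product separated most of the members and was the same in both species for each of them. It was 38 nt in bta-mir-30b and in fca-mir-30b, and 39 nt in bta-mir-30c and in fca-mir-30c-1. It was 40 nt in bta-mir-30d and in fca-mir-30-Novel4, and also in bta-mir-30f and in fca-mir-30c-2. The widest values were 41 nt in bta-mir-30a and fca-mir-30-Novel3 and 42 nt in bta-mir-30e and fca-mir-30-Novel2. The upstream member of each pair therefore had the greater distance in both species. Equal distances were found at 6 of 6 matched members. Of 138 loci outside the family with the same name in both sets and a product from each arm, 109 had equal distances (79%, 95% exact binomial interval 71.2 to 85.5%), and the others differed by up to 4 nt. These loci were matched by name alone, unlike the members, and whether each name marks the same place in both genomes was not tested. In mir-29 the distance was equal at 4 of 5 matched members, all but bta-mir-29e and fca-mir-29-Novel2. In mir-181 it was equal at 4 of 6, all but mir-181a-1 and mir-181d. Over all precursors with a product from each arm the median distance was 38 nt in both sets, and 44.1% of bovine and 41.5% of feline precursors had a distance in the family's range of 38 to 42 nt.

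Precursor spans matched at all but 1 place. Bovine members spanned 64 to 68 nt (median 66.5 nt) and feline members 65 to 68 nt (median 67 nt), beside medians of 66 and 65 nt over all precursors. Matched members had the same length at 5 of 6 places, namely 65 nt for mir-30b, 66 nt for bta-mir-30c and fca-mir-30c-1, 68 nt for bta-mir-30e and fca-mir-30-Novel2, and 67 nt for the others. Of 163 loci outside the family, matched between the sets by name alone, 36.2% had the same length. At the same 5 places both products also began and ended at the same positions within the precursor, which was so for 31.2% of the 138 loci outside the family. In mir-181 this held for 1 of 6 matched members and in mir-29 for 0 of 5. By the study's methods, a span is drawn from the most abundant product and either the stretch that pairs with it or another product. Span lengths and places within the span are therefore not independent of the product positions. The exception in the family was bta-mir-30a, which was 64 nt long where fca-mir-30-Novel3 had 67 nt. Its 5p product began at the first base of the precursor and had 20 nt where the feline one had 24 nt, so that 21 bases lay between its products and 17 between those of fca-mir-30-Novel3. The distance between the product starts was nevertheless 41 nt in both.

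**Figure D4:**
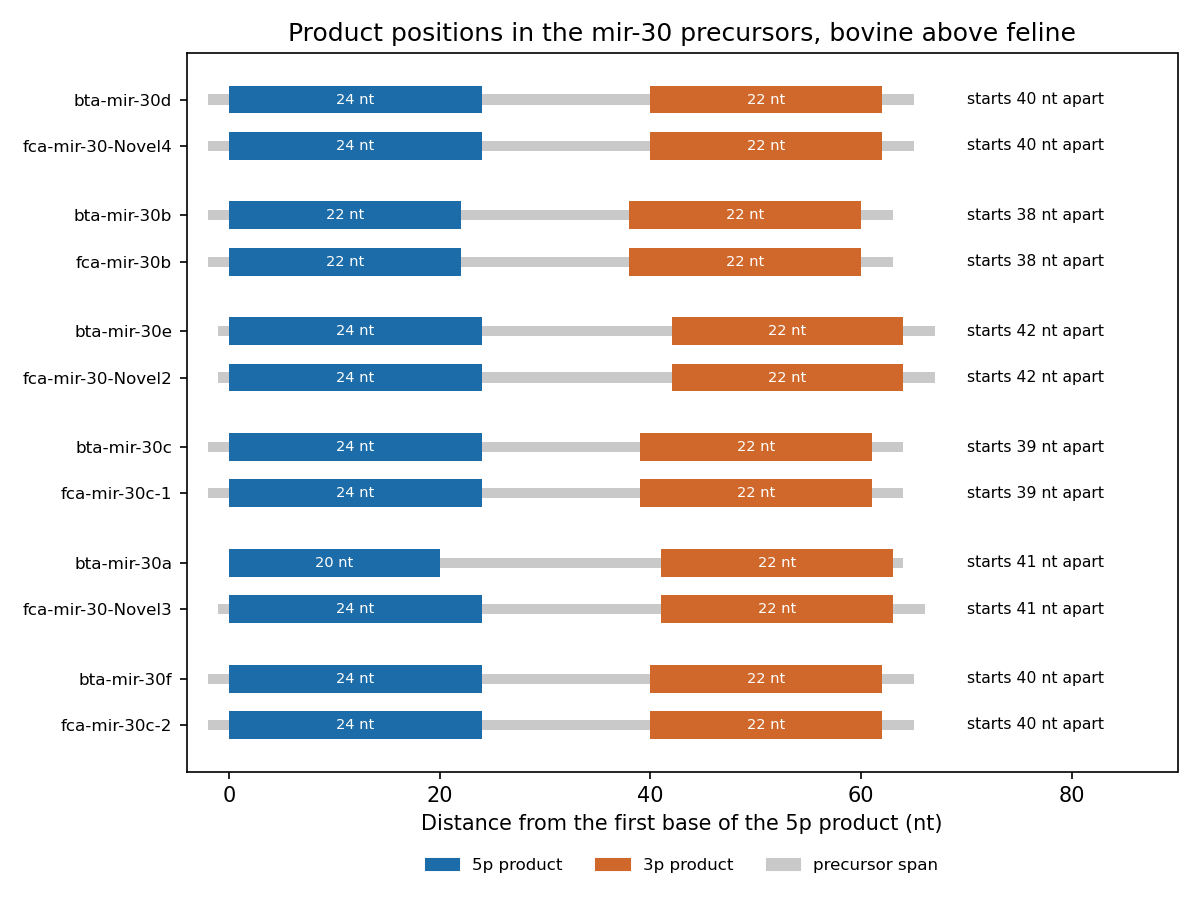
Products of the 12 paired mir-30 members, with distance in nt from the first base of the 5p product on the horizontal axis, the precursor span in grey, and the 5p and 3p products as boxes with their lengths. Each bovine member stands above its feline counterpart, and bta-mir-30a is the only one whose span and 5p product differ from those of its counterpart.

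At the mir-30e locus both sets listed a hairpin on the other strand, and named it differently. In cow it was named as antisense to bta-mir-30e, which left it outside the family as chosen here. In cat it was the unnumbered member of the family, and lay opposite fca-mir-30-Novel2. The bovine antisense precursor ran from 106062506 to 106062571 on the plus strand and the feline one from 31678900 to 31678965 on the minus strand. Both were 66 nt long, both overlapped the 68 nt precursor on the other strand by 63 nt, and both began 5 nt inside its 3′ end.

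Each of these antisense precursors gave a 5p product alone, which began at the first base of the precursor. The feline product had 22 nt (31678944 to 31678965) and covered 20 bases of the 3p product of fca-mir-30-Novel2 (31678946 to 31678967). The bovine product had 16 nt (106062506 to 106062521), all of them opposite the 3p product of bta-mir-30e (106062504 to 106062525). Neither reached the 5p product on the other strand. In both species the sense 3p product ran 2 nt beyond the first base of the antisense product, which is the same offset that the human sequences printed above have. Whether the bovine and feline antisense products carry the family's seed was not analysed here. The bovine product was the shortest of all 1397 bovine products and the only 1 of 16 nt or less (0.0716% of them), whereas the shortest of the 820 feline products had 17 nt. By the study's methods, reads under 17 nt were dropped before alignment, and 3′ ends could be trimmed further after it. The shortest feline length thus lies at that limit, and the bovine length of 16 nt lies below it. Whether trimming after alignment shortened the bovine product was not tested.

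**Figure D5:**
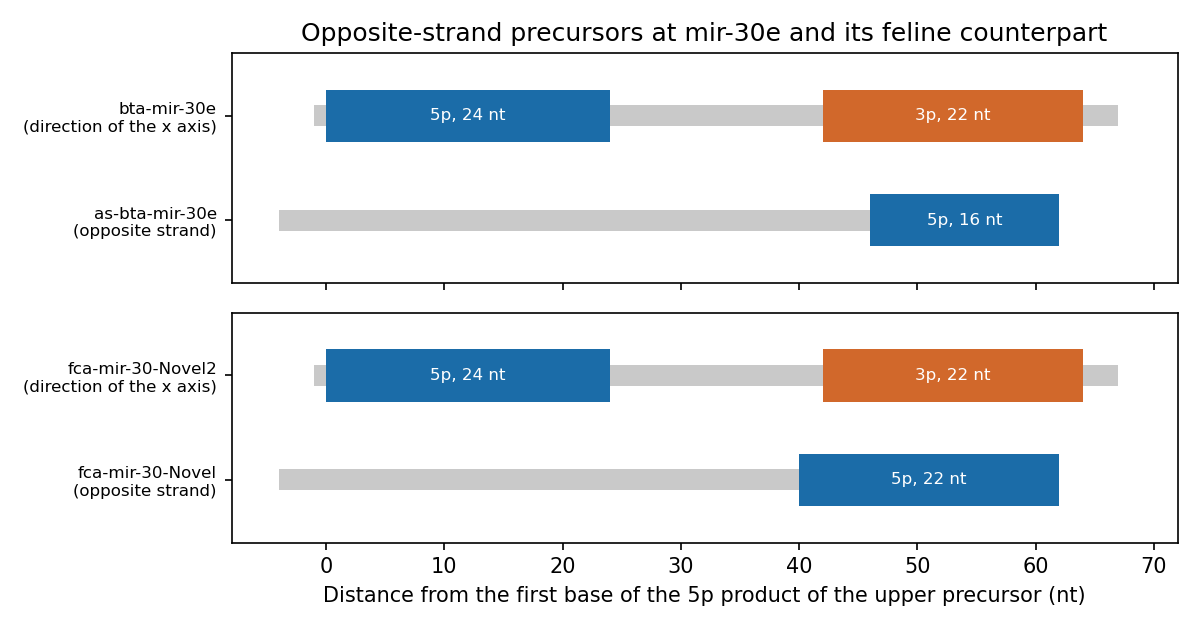
Precursors on opposite strands in cow (upper panel) and cat (lower panel), with distance in nt from the first base of the 5p product of the upper precursor on the horizontal axis, spans in grey and products as boxes with their lengths. In both panels the antisense product begins 2 nt inside the end of the 3p product, and it is 16 nt long in cow and 22 nt in cat.

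Opposite-strand precursors were uncommon in both sets. The bovine set had 25 such overlapping pairs, with 6.17% of its precursors in them, and the feline set had 17, with 6.87%. Of the family, 1 of 6 bovine and 2 of 7 feline members were in such a pair. An antisense name was carried by a locus of 17 bovine and 5 feline pairs. Both loci of a pair had the same family number without an antisense mark in 1 bovine pair, of mir-6536, and in 3 feline pairs, of mir-299, mir-486 and mir-30. The offset of 2 nt was found for 16 of 44 combinations in cow and for 8 of 25 in cat. Each combination took a 5p product and a 3p product from overlapping precursors on opposite strands, whether or not the products themselves overlap. The mir-30e locus and its feline counterpart are among these counts, and the offset was not limited to mir-30.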

How the data were processed

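Small RNA from bovine and feline tissues was sequenced by the authors, trimmed with cutadapt 1.15 and aligned with Bowtie, leaving out reads with more than 10 genome positions. Precursors and products were called with miRWoods, pooling the libraries of a species. The deposited values are first and last genomic bases, counted from 1. The score field is blank. For the genome build, no source used here gives a name. From these, members were found by name, and lengths, gaps, product offsets and clusters (gaps of at most 10 kb on either strand) were computed with Python 3.11.15, numpy 2.4.6 and scipy 1.17.1 and drawn with matplotlib 3.10.9. The finding of clusters, the distances between product starts and the gap ratios of neighbours were first tested on simulated loci. The choice of members, the matching of pairs and the opposite-strand offsets were not. No group test was run, since each species has 1 call set. Intervals are exact (Clopper-Pearson) and cover counting error only. Members, lists and comparisons were chosen with earlier results of these data known. Named loci are the family, its antisense loci, their neighbours, and mir-29 and mir-181 as counts with their pairs. Gene names came from a RefSeq table of ARS-UCD2.0, whose positions are not given. Alternatives varied the cluster distance, strand, how distance and length are measured, which names and products count, and the neighbour pairs.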

Additional observations from a re-analysis of the deposited data

How the results depend on the processing

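The number of mir-30 members in clusters moved with the distance. At 1 kb it fell from 4 to 1 in cow and from 5 to 2 in cat, since the gap within each pair is wider than that and the opposite-strand overlaps remained, and at 50 kb it rose to 6 and 7. With plain names alone the feline family had 3 members in place of 7. Measured from the start of the 5p to the end of the 3p product, the median length was 62 nt in both species. The other alternatives left each result within its counting interval, or within its spread between loci or pairs. Among them, with neighbours on the same strand alone 4 feline members were in clusters, and with antisense names counted the bovine family had 7 loci. The feline to bovine ratios of the 3 pair gaps were 1.01, 0.966 and 0.677 also when measured between the first bases of the 5p products. The median ratio of neighbour pairs was 1.01 over the 39 pairs within 10 kb and 1.0 with distances between span centres. Counting the bases between products, a setting chosen after seeing the data, 5 of 6 matched members were equal in place of 6. No paired analysis was possible because each species has 1 call set over all its libraries. Read depth per locus was not used here, so the absence of a member or an arm from a set says nothing of its expression.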
